A study of Homo sapiens with 6 samples.

Results

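The cadherins and protocadherins are the members described here, taken as the genes whose symbol is CDH followed by a number or PCDH followed by letters and digits. The rule found 96 of 60671 named genes: 23 cadherins, 14 protocadherins outside the gene clusters and 59 clustered protocadherins, of which 16 belong to the alpha, 19 to the beta and 24 to the gamma cluster. The clustered genes are described apart from the others. Of the 96 members, 53 had enough counts to be tested, namely 8 cadherins, 6 protocadherins outside the clusters and 39 clustered protocadherins, and 43 did not.

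BJ cells, an established line of human foreskin fibroblasts labelled WT, were sequenced on 3 days (0, 2 and 5) of a protocol of chemical reprogramming, with 2 libraries each. The day 0 libraries are labelled as BJ fibroblasts grown in DMEM with 10% serum. The day 2 and day 5 libraries are labelled FiN cells, or induced neurons: the day 2 cells had been in an induction medium and the day 5 cells had then been moved to a maturation medium, both with 10 µM forskolin, a plant compound that activates adenylyl cyclase and raises cAMP. All dishes for induction were coated with poly-D-lysine. No cells kept in these media without the drug were analysed here, and the effects of time, medium, coating and drug cannot be told apart. The libraries of a day are not said to come from separate cultures, and p-values therefore cover no more than the spread among libraries, which may be technical.

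Cadherins are calcium-dependent adhesion proteins that mostly bind the same cadherin on a neighbouring cell. Classical type I and type II cadherins join the actin skeleton through catenins, and which of them a cell makes helps to decide which cells it sticks to. Protocadherins lack the catenin-binding tail. Those outside the clusters act in cell sorting, migration and axon growth, and the clustered ones are known in the nervous system for giving each neuron its own surface identity, since each cell draws a set of first exons from tandem arrays, and every alpha or gamma isoform splices its first exon onto constant exons shared within its cluster.

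Library totals ran from 17599504 to 27941919 expected counts over named genes, lowest at day 5, where 3 counts equalled 0.180 and 0.164 CPM. CPM are counts relative to library size, scaled by TMM factors. The members held 0.139 and 0.136% of the counts in the day 0 libraries, 0.195 and 0.192% in those of day 2, and 0.219% in both of day 5. The fibroblast list (11 genes, none at 0) summed to 25707 and 26111 CPM in the day 0 libraries, 24528 and 24807 CPM in those of day 2, and 36689 and 37125 CPM in those of day 5. Its genes went both ways at day 5 against day 0, with 5 higher and 6 lower (median log2 fold change -0.05): COL1A2 (1.5 ± 0.01) and COL3A1 (1.34 ± 0.02) were higher, and VIM (-1.73 ± 0.01), DCN (-2.37 ± 0.02) and THY1 (-2.04 ± 0.03) lower. The neuron list (12 genes) summed to only 27.9 and 27.8 CPM in the day 0 libraries, 20.9 and 19.8 CPM in those of day 2, and 26.9 and 29.3 CPM in those of day 5. Of its genes 8 lay below the count filter, STMN2 and ELAVL4 with 0 counts in all 6 libraries. Of the other 4, SNAP25 was higher (log2 fold change 1.64 ± 0.13, adjusted p = 6.9e-09), SYT1 and INA lower and SYN1 not called at day 5 against day 0, and SYN1 was higher at day 2 (log2 fold change 0.81 ± 0.27, adjusted p = 0.0123). The markers of the neuron label thus went both ways, and most were at or near 0 on all days. Of 11 epithelial markers 4 (KRT5, KRT14, ESRP1 and GRHL2) were at 0 throughout, and the list summed to 26.2 to 57.7 CPM, nearly all from KRT8 and KRT18.

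More of the tested members were higher than lower at day 5. Of the 53 tested members, 31 were higher and 8 lower at day 5 than at day 0. Their median log2 fold change was 0.88, against 0.04 over all 16327 genes tested. Calls are adjusted p-values under 0.05 from edgeR's quasi-likelihood test, adjusted by the Benjamini-Hochberg method over all genes, and every adjusted p given is from that test unless another is named. Calls were common in the whole table: 69.9% of all genes tested were called at day 5 against day 0, 35.8% higher and 34.1% lower. The share of tested members called either way was near that of all genes, and the share called higher was above it. The count filter keeps a gene that reaches the needed counts in both libraries of 1 day only. PCDH10, PCDH20, PCDHA6, PCDHB11 and PCDHB18P passed in this way through day 5, and CDH8 and CDH15 through day 2. PCDHA3, called in no comparison, also reached these counts in both libraries of a day only at day 5. A higher call of such a gene at that day is favoured by the filter and is no separate support. The counts thus describe the members that passed and not all 96. In bulk RNA, fewer cells of a type and less RNA per cell cannot be told apart.

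At day 2 against day 0 the members did not move to one side. Of the 53, 13 were higher and 14 lower (median log2 fold change -0.21 against 0.00 over all genes), where 66.8% of all genes were called, 33.4% higher and 33.4% lower, a larger share than the 27 of 53 members. This split depended on the scaling: with library totals in place of TMM factors 10 were higher and 22 lower, and the median of all genes moved to -0.18 at day 2 and to -0.16 at day 5 against day 0. Of all 16327 genes, 4249 were then higher and 6902 lower at day 2. The share of members called lower was thus near that of all genes under library totals, and the share called higher was below it. Without day 2 replicate 2 there were 9 lower calls. At day 5 against day 2, 33 members were higher and 9 lower (median 1.27 against 0.01), where 65.8% of all genes were called, 32.1% higher and 33.7% lower. The 3 comparisons share libraries, so their counts are not independent of each other. The plot of fold changes shows the 53 members by class.

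**Figure D1:**
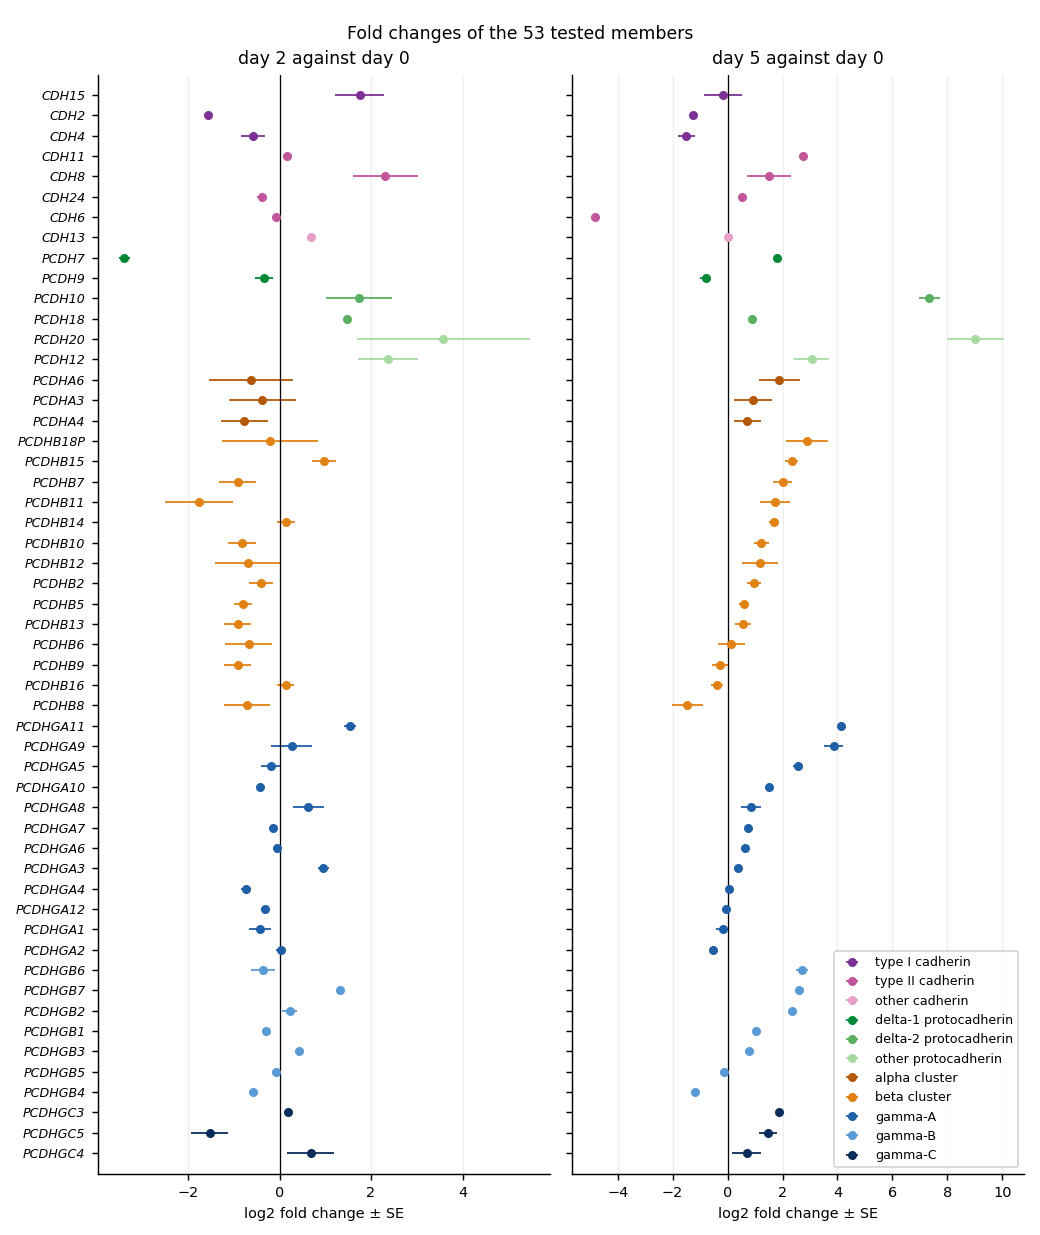
log2 fold change with its standard error (x axis) for each of the 53 tested members (rows, coloured by class), at day 2 against day 0 (left) and at day 5 against day 0 (right). At day 5 most beta and gamma protocadherins lie right of 0, while CDH6 lies at -4.83 and PCDH10 and PCDH20 lie farthest right, the fitted value of PCDH20 being no bound since day 0 had 0 counts.

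Among the type I cadherins, the fibroblast cadherin CDH2 (N-cadherin, ENSG00000170558, chr18:27950966-28177446, minus strand on GRCh38) fell. It had 32.4 and 33.5 CPM on day 0, 10.5 and 11.7 on day 2, and 14.8 and 12.6 on day 5. Both later days lay below day 0 with no overlap, and CDH2 was 2.97-fold lower at day 2 (log2 fold change -1.57 ± 0.09, adjusted p = 1.4e-10) and 2.41-fold lower at day 5 (log2 fold change -1.27 ± 0.10, adjusted p = 3.1e-09). Its small difference between day 5 and day 2 (log2 fold change 0.30 ± 0.11, adjusted p = 0.0238) was not called with no filter on low counts (adjusted p = 0.0604), without day 2 replicate 1 (0.16), without day 5 replicate 1 (0.25) and with DESeq2 (0.0729). CDH4 (R-cadherin, mainly of retina and brain) had 2.84 and 3.16 CPM on day 0, 2.04 and 1.97 on day 2, and 0.9596 and 1.15 on day 5. It was lower at day 5 than at day 0 (log2 fold change -1.5 ± 0.30, adjusted p = 2.6e-04) and was not called at day 2 (log2 fold change -0.58 ± 0.26, adjusted p = 0.0585), though it was called lower in 5 of 14 other settings (adjusted p 0.0152 to 0.213 over these 14). The call of CDH4 at day 5 against day 2 (log2 fold change -0.92 ± 0.31, adjusted p = 0.0154) was lost without day 5 replicate 1 (adjusted p = 0.0685). CDH15 (M-cadherin of muscle) stayed near the detection limit, with 0.237 and 0.344 CPM on day 0, 0.875 and 1.12 on day 2, and 0.2999 and 0.218 on day 5. Both day 2 libraries lay above those of the other days, and CDH15 was higher at day 2 (log2 fold change 1.75 ± 0.54, adjusted p = 0.00884) and lower at day 5 against day 2 (log2 fold change -1.93 ± 0.60, adjusted p = 0.00951). The first of these calls was lost without day 0 replicate 1 (adjusted p = 0.0791), without day 2 replicate 2 (0.101) and with DESeq2 (0.0522), and the second without day 2 replicate 2 (adjusted p = 0.0875) and without day 5 replicate 2 (0.0809).

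The epithelial cadherin CDH1 had at most 1 count in any library, so a switch between CDH1 and CDH2 could not be followed here. CDH3 (P-cadherin) reached 5.03 counts in 1 day 2 library and had 0 counts in both day 5 libraries. The endothelial CDH5 (VE-cadherin) had 1 count in day 0 replicate 1 and 0 in the others. A count of 0 in a library allows at most 3 counts, which is 0.103 to 0.180 CPM over these libraries. Intervals and floors cover counting error only.

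The type II cadherins moved in opposite directions, and CDH6 and CDH11 changed places. CDH6 (K-cadherin, known from kidney and neural crest, ENSG00000113361, chr5:31193750-31329146, plus strand) had 108 and 105 CPM on day 0, 99.9 and 99.2 on day 2, and 3.96 and 3.55 on day 5. The day 5 libraries lay far below all others, and CDH6 was 28.4-fold lower at day 5 than at day 0 (log2 fold change -4.83 ± 0.08, adjusted p = 9.8e-19) and 26.6-fold lower than at day 2 (log2 fold change -4.73 ± 0.08, adjusted p = 2.6e-18). At day 2 it had not been called (log2 fold change -0.09 ± 0.04, adjusted p = 0.0549), though it was called lower in 7 of 14 other settings (adjusted p 1.4e-05 to 0.232 over these 14). CDH11 (OB-cadherin, a mesenchymal cadherin of bone, synovium and activated fibroblasts, ENSG00000140937, chr16:64943753-65126112, minus strand) had 34.1 and 32.5 CPM on day 0, 38.2 and 36.3 on day 2, and 223 and 228 on day 5. Its day 5 libraries lay above all others, 6.78-fold over day 0 (log2 fold change 2.76 ± 0.05, adjusted p = 1.4e-18) and 6.07-fold over day 2 (log2 fold change 2.60 ± 0.05, adjusted p = 5.4e-18). The small day 2 difference of CDH11 from day 0 (log2 fold change 0.16 ± 0.05, adjusted p = 0.0148) was lost under library totals (adjusted p = 0.714), without day 0 replicate 2 (0.141), without day 2 replicate 1 (0.119) and with DESeq2 (0.0563). Per kilobase of gene length, CDH6 stood at 12.5 and CDH11 at 4.96 CPM per kb at day 0, and CDH6 at 0.4395 and CDH11 at 33.6 CPM per kb at day 5 (means of 2 libraries).

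CDH24 and CDH8 were the other type II members tested. CDH24, a cadherin that also binds catenins, had 19.3 and 21.96 CPM on day 0, 14.5 and 16.9 on day 2, and 30.2 and 29.9 on day 5. Day 2 lay below and day 5 above day 0, with no overlap between days, and both changes passed the test (log2 fold change -0.39 ± 0.10, adjusted p = 0.00174 at day 2; log2 fold change 0.54 ± 0.09, adjusted p = 7.0e-05 at day 5, both against day 0). CDH8, a cadherin of brain, had 0.0789 and 0.206 CPM on day 0, 0.708 and 0.781 on day 2, and 0.1799 and 0.655 on day 5. It was higher at day 2 than at day 0 (log2 fold change 2.31 ± 0.71, adjusted p = 0.00893), a call lost without day 0 replicate 1 (adjusted p = 0.0972) and without day 2 replicate 2 (0.0559), and the day 5 libraries overlapped day 0. CDH13, of neither type (T-cadherin, which is anchored in the membrane by a lipid and binds adiponectin and LDL, ENSG00000140945, chr16:82626803-83800640, plus strand) had 89.7 and 87.8 CPM on day 0, 143 and 141 on day 2, and 89.5 and 87.8 on day 5. It was 1.598-fold higher at day 2 than at day 0 (log2 fold change 0.68 ± 0.04, adjusted p = 4.6e-11). By day 5 it overlapped day 0 again (log2 fold change -0.00 ± 0.04, adjusted p = 0.966), and it was lower than at day 2 (log2 fold change -0.68 ± 0.04, adjusted p = 9.0e-11).

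Counted together, 2 of the 8 tested cadherins were higher (CDH11 and CDH24) and 3 lower (CDH2, CDH4 and CDH6) at day 5 against day 0 (median log2 fold change -0.09). At day 2 against day 0, 4 were higher and 2 lower (median 0.04), and at day 5 against day 2, 3 were higher and 4 lower (median -0.74). The shares of all genes called either way in these comparisons were 69.9, 66.8 and 65.8%, in that order. The summed level of all 23 cadherins was 286 ± 1.55 CPM at day 0, 309.8 ± 0.5997 CPM at day 2 and 364 ± 0.933 CPM at day 5 (SD, n = 2 each). The ratio of day 2 to day 0 in this sum was 1.084 with TMM factors, 1.072 with RLE size factors and 0.954 with library totals, so its direction turned with the scaling. The ratio of day 5 to day 0 was 1.106 to 1.275 under these scalings.

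Of the 6 tested protocadherins outside the clusters, 5 were higher and 1 (PCDH9) was lower at day 5 than at day 0 (median log2 fold change 2.44). Over all genes tested, 35.8% were higher and 34.1% lower. PCDH10 and PCDH20 passed the count filter through day 5 only, which favours their higher calls. PCDH18 (a delta-2 protocadherin, ENSG00000189184, chr4:137518918-137532494, minus strand) had the highest level of the members at all 3 days, in CPM and per kilobase. It had 423 and 419 CPM on day 0, 1183 and 1164 on day 2, and 773 and 773 on day 5. The libraries of a day lay close together and no days overlapped. PCDH18 was 2.79-fold higher at day 2 than at day 0 (log2 fold change 1.48 ± 0.02, adjusted p = 1.8e-19), 1.84-fold higher at day 5 than at day 0 (log2 fold change 0.88 ± 0.02, adjusted p = 1.4e-16), and lower at day 5 than at day 2 (log2 fold change -0.60 ± 0.02, adjusted p = 2.6e-14). PCDH10 (OL-protocadherin, a delta-2 protocadherin that recruits the actin regulator complex WAVE, ENSG00000138650, chr4:133149315-133208606, plus strand) had 0.118 and 0.0344 CPM on day 0, 0.375 and 0.149 on day 2, and 12.2 and 13.3 on day 5. Its day 5 libraries held 203 and 244 counts, against 3 and 1 at day 0. The difference was large in this fit (log2 fold change 7.34 ± 0.38, adjusted p = 1.3e-11), though its size rests on those few day 0 counts. The day 2 call of PCDH10 (log2 fold change 1.73 ± 0.72, adjusted p = 0.043) was not stable. It was lost under library totals (adjusted p = 0.0682), with the replicate number as a block (0.0615), with limma-voom (0.12) and with DESeq2 (0.0701). Leaving out day 0 replicate 2, day 2 replicate 1 or either day 5 library ended it too.

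The delta-1 protocadherin PCDH7 (NF-protocadherin, ENSG00000169851, chr4:30720415-31146805, plus strand) fell and then rose. It had 19.01 and 18.04 CPM on day 0, 1.71 and 1.79 on day 2, and 66.2 and 63.8 on day 5. All 3 days were separate, with day 2 lowest and day 5 highest: PCDH7 was 10.6-fold lower at day 2 than at day 0 (log2 fold change -3.40 ± 0.12, adjusted p = 1.2e-13), 3.51-fold higher at day 5 than at day 0 (log2 fold change 1.81 ± 0.07, adjusted p = 3.3e-13) and 37.1-fold higher at day 5 than at day 2 (log2 fold change 5.21 ± 0.11, adjusted p = 4.2e-17). PCDH9, also delta-1 and abundant in brain, had 6.15 and 4.78 CPM on day 0, 4.58 and 4.02 on day 2, and 3.299 and 2.95 on day 5. It was lower at day 5 than at day 0 (log2 fold change -0.80 ± 0.21, adjusted p = 0.00227) and was called neither at day 2 against day 0 (log2 fold change -0.34 ± 0.19, adjusted p = 0.118) nor at day 5 against day 2 (log2 fold change -0.46 ± 0.21, adjusted p = 0.0651).

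PCDH20 (ENSG00000280165, chr13:61409685-61415522, minus strand) was detected almost only at day 5. It had 0 and 0 CPM on day 0, 0 and 0.112 on day 2, and 2.64 and 2.89 on day 5, with 0 counts in both day 0 libraries. Against a floor of 3 counts over the day 0 libraries, PCDH20 was at least 50.3-fold higher at day 5 (adjusted p = 9.9e-07). Against the 3 counts of day 2 it was 47.0-fold higher, with an exact 95% counting interval of 15.6 to 232. PCDH12 (VE-cadherin-2, known from endothelium) had 0.0789 and 0.206 CPM on day 0, 0.541 and 1.005 on day 2, and 1.499 and 1.04 on day 5. Both later days lay above day 0, at day 5 (log2 fold change 3.07 ± 0.64, adjusted p = 3.9e-04) and at day 2 (log2 fold change 2.37 ± 0.65, adjusted p = 0.00385), the day 2 call being lost without day 2 replicate 2 (adjusted p = 0.0688). The endothelial marker list (8 genes, none at 0 throughout) summed to 77.9 and 77.6 CPM in the day 0 libraries, 89.7 and 89.8 CPM in those of day 2, and 147 and 144 CPM in those of day 5. At day 5 against day 0, 2 of its 6 tested genes were higher (KDR and CLDN5) and 2 lower (ROBO4 and ESAM), and the part of other cells in the PCDH12 result was not tested.

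**Figure D2:**
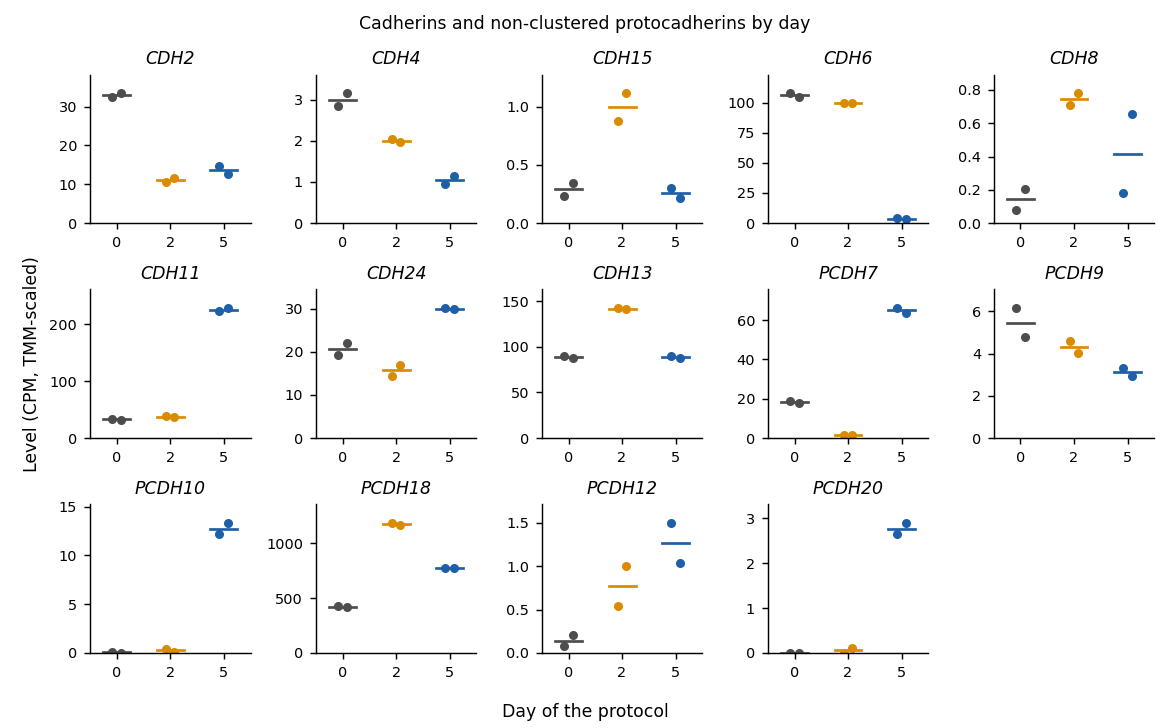
TMM-scaled CPM (y axis, from 0, a scale of its own for each gene) at day 0, 2 and 5 (x axis) for the 8 tested cadherins and 6 tested protocadherins outside the clusters. Points are the 2 libraries of a day and bars their mean; CDH6 drops at day 5, where CDH11, PCDH7, PCDH10 and PCDH20 are highest.

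The clustered protocadherins lie in tandem on the plus strand of chromosome 5, from chr5:140786136-141012347 for the alpha, chr5:141051135-141249365 for the beta and chr5:141330571-141512981 for the gamma genes (GENCODE 29 on GRCh38). In the tested gamma genes 27.6 to 64.4% of annotated exonic bases also belonged to another member, and in the tested alpha genes 21.3 to 46.7%, while no beta gene shared any. The deposited counts show how such reads were handled: of 306 values above 0 in clustered members 21.2% were whole numbers, against 78.1% of 137 values in the other members, and among gamma-A and gamma-C values 0% were whole. Reads were thus, at least in part, divided among genes by estimation. Of the alpha values 41.1% were whole, and of the beta values 29%, although beta genes share no annotated exonic bases. A level of a single clustered gene is uncertain to that extent, and the sum over a cluster is less touched by it. Among gene levels of at least 1 CPM at a day, the higher of the 2 libraries exceeded the lower by a median factor of 1.12 in gamma (65 values), 1.18 in beta (29 values) and 1.05 in the unclustered members (32 values). The largest such gaps were 5.89 for PCDHGA9 at day 2 and 4.71 for PCDHGC4 at day 0.

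Each variable first exon of these clusters has its own promoter, and most carry a conserved element near the start site that contains the letters CGCTG. RefSeq promoter windows (250 bases before to 50 bases after the start, GRCh38.p14) were at hand for 70 of the 96 members, 47 of them clustered. The letters CGCTG, read on the gene's own strand, were in 40 of these 47 clustered genes and in 44 of their 52 windows (84.6%), against 30.7% of all 35116 windows and 34.2% of the 38 windows of the other members. On either strand the shares were 88.5% of clustered windows and 48% of all windows. The stretches of 42 bases around these letters are printed for some genes that rose and some that fell. All are on the plus strand of GRCh38.p14, and capitals mark CGCTG. Only genes with CGCTG could be printed, so their sharing of these letters follows from the choice. Not every such gene is shown, and PCDHGB7, which rose, has other letters around its CGCTG. At day 5 against day 0, PCDHGA9, PCDHGA11, PCDHGA5, PCDHGB6, PCDHGC3, PCDHB15, PCDHB7 and PCDHA6 were higher, PCDHGB5, PCDHGB4, PCDHGA2 and PCDHB8 lower, and PCDHB9 was not called.
PCDHGA9 (chr5:141402708-141402749): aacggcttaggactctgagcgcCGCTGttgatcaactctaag
PCDHGA11 (chr5:141420966-141421007): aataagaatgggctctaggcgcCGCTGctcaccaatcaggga
PCDHGA5 (chr5:141364101-141364142): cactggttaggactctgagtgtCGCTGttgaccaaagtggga
PCDHGB6 (chr5:141407918-141407959): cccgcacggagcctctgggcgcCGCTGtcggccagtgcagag
PCDHGC3 (chr5:141475874-141475915): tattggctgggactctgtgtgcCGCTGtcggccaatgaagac
PCDHGB5 (chr5:141397857-141397898): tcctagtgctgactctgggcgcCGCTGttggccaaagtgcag
PCDHGB4 (chr5:141387611-141387652): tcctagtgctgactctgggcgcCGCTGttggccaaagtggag
PCDHGA2 (chr5:141338697-141338738): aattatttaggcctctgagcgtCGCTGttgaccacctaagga
PCDHB15 (chr5:141245308-141245349): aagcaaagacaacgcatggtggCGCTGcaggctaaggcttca
PCDHB7 (chr5:141172560-141172601): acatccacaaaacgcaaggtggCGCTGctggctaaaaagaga
PCDHB9 (chr5:141187068-141187109): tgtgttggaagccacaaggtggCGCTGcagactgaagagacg
PCDHB8 (chr5:141177771-141177812): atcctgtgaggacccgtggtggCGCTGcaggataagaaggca
PCDHA6 (chr5:140827891-140827932): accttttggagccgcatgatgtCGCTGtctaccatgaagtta

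The letters just before the box differed by cluster. The 10 letters around the box found in the largest number of a cluster's genes were ggtggCGCTG in the beta cluster (12 of 14 genes, and 0.179% of all windows), gcgcCGCTGt in the gamma cluster (9 of 20 genes, 0.0797% of all windows) and gatgtCGCTG in the alpha cluster (6 of 13 genes, 0.037% of all windows). PCDHGB4, which fell, and PCDHGB6 and PCDHGA9, which rose, hold the same 10 gamma letters. PCDHGA11, PCDHGA5 and PCDHGC3, which rose, and PCDHGA2, which fell, do not hold them. PCDHB8, whose lower call at day 5 was lost in 3 other settings, holds the same 10 beta letters as PCDHB15 and PCDHB7, which rose. The cAMP response element TGACGTCA, the site bound by CREB, was in 0 of the 90 windows of members and in 1.85% of all windows. Its shorter form TGACG on either strand, which the full element contains, was in 27 of the 90 windows (30%) and in 24.6% of all windows. A match is a description of letters, not of a bound site.

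Summed over its 24 genes, the gamma cluster stood higher at day 5 than before. Its summed level was 496 ± 5.13 CPM at day 0, 498 ± 2.39 CPM at day 2 and 1028 ± 9.34 CPM at day 5 (SD, n = 2 each). The day 5 libraries lay above all others, with ratios of 2.074 to day 0 and 2.065 to day 2 (1.798 and 2.035 with library totals). Between day 2 and day 0 the direction turned with the scaling, at 1.004 with TMM factors, 0.992 with RLE size factors and 0.884 with library totals. No test was run on these sums. Of the 22 tested gamma genes, 15 were higher and 3 lower at day 5 than at day 0 (median log2 fold change 0.82), and 5 were higher and 6 lower at day 2 than at day 0 (median -0.06). Over all genes, 35.8% were higher and 34.1% lower at day 5, and 33.4% went each way at day 2. Of the gamma subfamilies, the gamma-C genes had the largest ratio: their sum was 107 ± 3.15 CPM at day 0, 121 ± 3.33 CPM at day 2 and 382 ± 8.22 CPM at day 5, a ratio of 3.583 of day 5 to day 0. The ratio was 1.881 for gamma-A and 1.481 for gamma-B genes.

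PCDHGC3 (ENSG00000240184, chr5:141475947-141512979, plus strand), a C-type isoform placed after the variable arrays and known in the mouse to be made in many neurons alike, held the largest share of the gamma sum at day 5. It had 104 and 103 CPM on day 0, 116 and 119 on day 2, and 379 and 371 on day 5. The day 5 libraries lay far above the others, 3.63-fold over day 0 (log2 fold change 1.86 ± 0.03, adjusted p = 2.0e-18). The small day 2 rise (log2 fold change 0.18 ± 0.03, adjusted p = 1.4e-04) was lost under library totals (adjusted p = 0.965). PCDHGC5, a further C-type isoform, had 1.62 and 1.13 CPM on day 0, 0.375 and 0.558 on day 2, and 4.32 and 3.28 on day 5. It was lower at day 2 (log2 fold change -1.53 ± 0.40, adjusted p = 0.00261) and higher at day 5 (log2 fold change 1.47 ± 0.32, adjusted p = 6.7e-04) than at day 0. PCDHGC4, the C-type isoform needed for the survival of neurons in the mouse, was at 0.653 to 4.44 CPM and was not called, its libraries overlapping at every pair of days.

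Among the gamma-A isoforms, 8 of 12 were higher and 1 lower at day 5 than at day 0. Over all genes, 35.8% were higher and 34.1% lower. PCDHGA11 had 3.195 and 2.75 CPM on day 0, 8.704 and 8.45 on day 2, and 51.2 and 51.8 on day 5. It rose at each step with no overlap, to 17.4-fold over day 0 (log2 fold change 4.12 ± 0.11, adjusted p = 8.1e-16) after 1.53 ± 0.13 on the log2 scale at day 2. PCDHGA9 had 1.54 and 1.58 CPM on day 0, 3.29 and 0.558 on day 2, and 24.5 and 21.1 on day 5. Its day 5 libraries lay far above the rest (log2 fold change 3.86 ± 0.35, adjusted p = 2.6e-08), while its day 2 libraries straddled day 0, and without day 2 replicate 1 it was called lower at day 2 (log2 fold change -1.47, adjusted p = 0.00146). PCDHGA10 had 23.04 and 23.7 CPM on day 0, 16.9 and 17.97 on day 2, and 66.7 and 64.4 on day 5. It was lower at day 2 (log2 fold change -0.42 ± 0.07, adjusted p = 7.7e-05) and higher at day 5 (log2 fold change 1.49 ± 0.06, adjusted p = 1.2e-12), both against day 0. PCDHGA5 had 2.84 and 2.41 CPM on day 0, 1.96 and 2.604 on day 2, and 13.8 and 17.03 on day 5, and was called higher at day 5 against day 0 (log2 fold change 2.56 ± 0.18, adjusted p = 1.2e-09).

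The other gamma-A genes moved less. PCDHGA7 had 31.2 and 29.5 CPM on day 0, 26.4 and 28.1 on day 2, and 49.1 and 51.8 on day 5. PCDHGA6 had 22.2 and 22.3 CPM on day 0, 21.9 and 21.1 on day 2, and 37.00 and 32.2 on day 5. In both genes day 5 lay above both earlier days, by 0.73 ± 0.07 and 0.63 ± 0.08 on the log2 scale over day 0 (adjusted p = 2.8e-08 and 2.5e-06). PCDHGA3 had 8.76 and 8.49 CPM on day 0, 15.3 and 17.9 on day 2, and 11.8 and 10.5 on day 5. It was highest at day 2 (log2 fold change 0.95 ± 0.12, adjusted p = 1.5e-06), and its call at day 5 against day 0 (log2 fold change 0.37 ± 0.13, adjusted p = 0.0161) was lost under library totals (adjusted p = 0.261), without day 0 replicate 2 (0.0839), without day 5 replicate 1 (0.133) and with DESeq2 (0.0851). PCDHGA4 had 26.9 and 22.99 CPM on day 0, 16.5 and 13.4 on day 2, and 26.9 and 24.2 on day 5. PCDHGA12 had 35.3 and 34.1 CPM on day 0, 27.9 and 27.1 on day 2, and 36.6 and 30.2 on day 5. Both dipped at day 2 against day 0 (log2 fold change -0.74 ± 0.11 for PCDHGA4, adjusted p = 1.0e-05, and -0.33 ± 0.08 for PCDHGA12, adjusted p = 0.0013) and overlapped day 0 again at day 5. The step of PCDHGA12 between day 5 and day 2 (log2 fold change 0.28 ± 0.08, adjusted p = 0.00853) was lost without day 2 replicate 2 (adjusted p = 0.0505) and without day 5 replicate 1 (0.228). PCDHGA2 had 18.7 and 16.7 CPM on day 0, 17.4 and 18.4 on day 2, and 10.6 and 13.8 on day 5, and it was the gamma-A gene that fell at day 5 (log2 fold change -0.53 ± 0.12, adjusted p = 8.8e-04). PCDHGA8 was higher at day 5 against day 0 (log2 fold change 0.85 ± 0.35, adjusted p = 0.0379), a call that was not stable. It was lost under library totals (adjusted p = 0.109), with the replicate number as a block (0.0591) and with DESeq2 (0.0925). Leaving out either day 0 library or day 5 replicate 1 ended it too. PCDHGA1 was called in no comparison (-0.18 ± 0.24 at day 5 against day 0).

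Of the 7 tested gamma-B genes 5 were higher and 2 lower at day 5 than at day 0. Over all genes, 35.8% were higher and 34.1% lower. PCDHGB7 had 13.2 and 13.7 CPM on day 0, 33.8 and 33.1 on day 2, and 81.9 and 80.1 on day 5. It rose at each step with no overlap, by 1.31 ± 0.07 at day 2 and 2.59 ± 0.06 at day 5 over day 0 on the log2 scale (adjusted p = 2.0e-11 and 3.8e-16). PCDHGB6 had 1.74 and 2.34 CPM on day 0, 1.96 and 1.23 on day 2, and 12.3 and 14.5 on day 5. PCDHGB2 had 5.72 and 4.95 CPM on day 0, 5.37 and 6.96 on day 2, and 24.8 and 29.9 on day 5. The day 2 libraries of both overlapped day 0, and both genes were higher at day 5 than at day 0 (log2 fold change 2.71 ± 0.21 for PCDHGB6, adjusted p = 4.4e-09, and 2.36 ± 0.14 for PCDHGB2, adjusted p = 9.6e-11). PCDHGB1 had 23.1 and 22.7 CPM on day 0, 19.6 and 17.7 on day 2, and 48.2 and 46.2 on day 5. It was higher at day 5 than at day 0 (log2 fold change 1.04 ± 0.07, adjusted p = 9.4e-10), and its lower level at day 2 (log2 fold change -0.30 ± 0.08, adjusted p = 0.00295) was not called without day 2 replicate 2 (adjusted p = 0.0512). PCDHGB3 had 15.9 and 15.4 CPM on day 0, 23.1 and 19.05 on day 2, and 25.8 and 28.1 on day 5. It rose at day 2 (log2 fold change 0.43 ± 0.10, adjusted p = 0.00111) and day 5 (log2 fold change 0.79 ± 0.10, adjusted p = 2.2e-06) against day 0, and its call at day 5 against day 2 (log2 fold change 0.36 ± 0.10, adjusted p = 0.0038) was lost without day 2 replicate 2 (adjusted p = 0.09).

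The gamma-B genes that fell differed in size of change. PCDHGB4 had 41.7 and 49.01 CPM on day 0, 29.98 and 30.5 on day 2, and 17.5 and 22.8 on day 5. No days overlapped, and it fell at day 2 (log2 fold change -0.59 ± 0.09, adjusted p = 2.2e-05) and day 5 (log2 fold change -1.17 ± 0.10, adjusted p = 1.7e-08) against day 0. PCDHGB5 had 109 and 109.5 CPM on day 0, 106 and 103 on day 2, and 102 and 99.8 on day 5. Its fall at day 5 against day 0 was small (log2 fold change -0.12 ± 0.04, adjusted p = 0.0147) and was lost without day 5 replicate 2 (adjusted p = 0.0776). In chromosomal order PCDHGA9, PCDHGB6, PCDHGA10, PCDHGB7 and PCDHGA11 are consecutive genes, and their log2 fold changes at day 5 against day 0 were 3.86, 2.71, 1.49, 2.59 and 4.12. The neighbours before them, PCDHGB4, PCDHGA8 and PCDHGB5, had -1.17, 0.85 and -0.12. Earlier in the cluster the adjacent PCDHGB2 and PCDHGA5 had 2.36 and 2.56, so large rises were not confined to this part. The run from PCDHGA9 to PCDHGA11 was picked out after its values were seen. The plot of gamma genes in order along the cluster shows it.

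**Figure D3:**
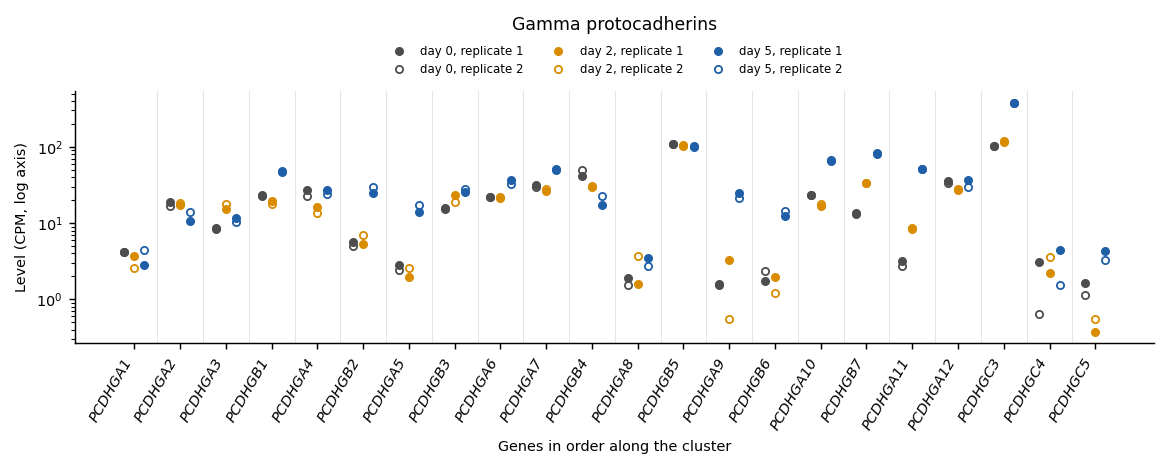
TMM-scaled CPM (y axis, log scale) of the 22 tested gamma protocadherins in order along the cluster (x axis), with filled points for replicate 1 and open points for replicate 2 at day 0, 2 and 5. From PCDHGA9 to PCDHGA11 the day 5 points stand above those of both earlier days, while PCDHGB4 and PCDHGA2 are lowest at day 5.

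The make-up of the gamma sum changed with its size. PCDHGB5 held 21.9 and 22.3% of the sum in the day 0 libraries, 21.2 and 20.7% in those of day 2, and 9.85 and 9.77% in those of day 5. PCDHGC3 held 20.8% in both day 0 libraries, 23.1 and 23.9% in those of day 2, and 36.6 and 36.3% in those of day 5. PCDHGB4 held 8.34 and 9.96% in the day 0 libraries, 6 and 6.16% in those of day 2, and 1.69 and 2.23% in those of day 5. The first place thus passed to PCDHGC3, although PCDHGB5 itself had nearly the same CPM at the 3 days. More genes contributed visibly at day 5: 14 genes held at least 1% of the sum in each day 0 library, 15 in each day 2 library and 18 in each day 5 library. The effective number of genes (the inverse of the sum of squared shares) was 8.32 and 8.1 in the day 0 libraries, 8.13 and 8.04 in those of day 2, and 6 and 6.08 in those of day 5. These are shares of counts and are not corrected for gene length. A bulk library does not show which isoforms a single cell made.

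**Figure D4:**
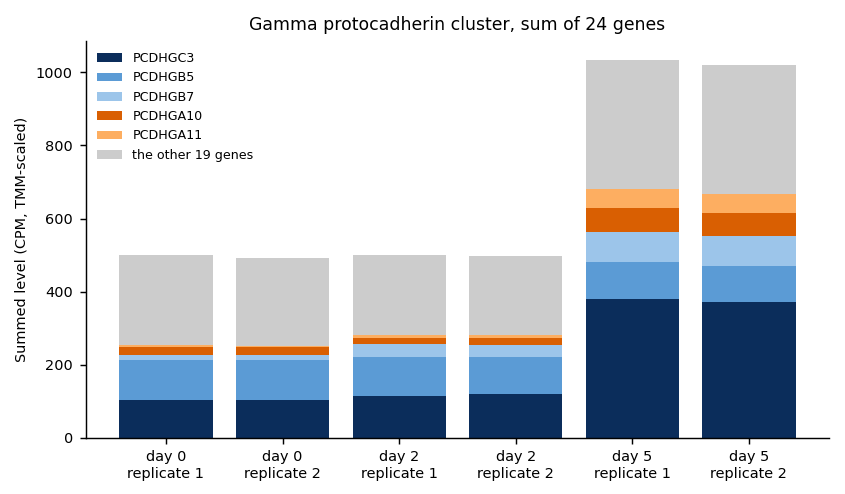
Summed TMM-scaled CPM of the 24 gamma genes (y axis) in each of the 6 libraries (x axis), with 5 genes coloured and the other 19 in grey. The stacked bars stand near 496 CPM at day 0, 498 CPM at day 2 and 1028 CPM at day 5, and PCDHGC3 takes 36.6 and 36.3% of the day 5 sums.

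The beta protocadherins, each a gene of 1 coding exon with no constant exons, were low throughout and summed to more at day 5 than before. Their summed level was 27.8 ± 1.64 CPM at day 0, 21.4 ± 2.68 CPM at day 2 and 53.02 ± 3.995 CPM at day 5 (SD, n = 2 each, 19 genes), with ratios to day 0 of 0.679 to 0.772 at day 2 and 1.656 to 1.910 at day 5 over 3 scalings. Of 14 tested, 8 were higher and 1 lower at day 5 than at day 0 (median log2 fold change 1.06), and 1 was higher and 5 lower at day 2 (median -0.70). PCDHB11 and PCDHB18P, both among those higher at day 5, passed the count filter through day 5. Over all genes, 35.8% were higher and 34.1% lower at day 5, and 33.4% went each way at day 2. PCDHB14 had 2.88 and 2.68 CPM on day 0, 3.04 and 3.09 on day 2, and 8.76 and 9.23 on day 5, and PCDHB15 had 1.302 and 1.100 CPM on day 0, 2.54 and 2.16 on day 2, and 5.698 and 6.44 on day 5. The day 5 libraries of both lay above the rest (log2 fold change over day 0 1.69 ± 0.18 for PCDHB14, adjusted p = 2.0e-07, and 2.34 ± 0.24 for PCDHB15, adjusted p = 1.8e-07). PCDHB15 was the beta gene that was also higher at day 2 (log2 fold change 0.97 ± 0.26, adjusted p = 0.00329). PCDHB5 had 4.97 and 4.43 CPM on day 0, 2.58 and 2.79 on day 2, and 6.897 and 7.26 on day 5. It was lower at day 2 (log2 fold change -0.80 ± 0.19, adjusted p = 0.00105) and higher at day 5 (log2 fold change 0.59 ± 0.17, adjusted p = 0.00594) than at day 0, the day 5 call being lost under library totals (adjusted p = 0.057) and without day 0 replicate 2 (0.0539).

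Further beta genes lay lower at day 2. PCDHB10 had 3.31 and 2.303 CPM on day 0, 2.17 and 1.04 on day 2, and 6.54 and 6.61 on day 5. Its day 2 call (log2 fold change -0.82 ± 0.30, adjusted p = 0.0231) was lost without day 0 replicate 1 (adjusted p = 0.211) and without day 2 replicate 2 (0.304), and it was higher at day 5 than at day 0 (log2 fold change 1.23 ± 0.26, adjusted p = 5.2e-04). PCDHB9 had 3.23 and 2.27 CPM on day 0, 1.71 and 1.19 on day 2, and 2.099 and 2.402 on day 5. PCDHB13 had 2.13 and 2.58 CPM on day 0, 1.58 and 0.9302 on day 2, and 3.42 and 3.55 on day 5. Both lay below day 0 at day 2, with log2 fold changes of -0.92 ± 0.30 for PCDHB9 (adjusted p = 0.0121) and -0.92 ± 0.30 for PCDHB13 (adjusted p = 0.0133), and were not called at day 5 against day 0. The call of PCDHB9 was lost without day 0 replicate 1 (adjusted p = 0.138) and without day 2 replicate 2 (0.111), and that of PCDHB13 without day 0 replicate 2 (adjusted p = 0.0964) and without day 2 replicate 2 (0.154). PCDHB11 had 0.592 and 0.378 CPM on day 0, 0.2499 and 0.0372 on day 2, and 1.32 and 1.91 on day 5. Its day 2 call (log2 fold change -1.76 ± 0.74, adjusted p = 0.0447) was not stable. It was lost with only the 4 libraries compared (adjusted p = 0.0562), with the replicate number as a block (0.0626) and with DESeq2 (0.0662). Leaving out any single library except day 2 replicate 1 ended it too. The rise of PCDHB11 at day 5 against day 0 (log2 fold change 1.74 ± 0.55) was lost without day 0 replicate 2 and without day 5 replicate 2. PCDHB11 reached the counts of the filter in both libraries of a day only at day 5, which favours its higher calls there. PCDHB7 had 1.34 and 0.997 CPM on day 0, 0.875 and 0.372 on day 2, and 4.08 and 5.24 on day 5. It was not called at day 2 (log2 fold change -0.92 ± 0.41, adjusted p = 0.0586) and was higher at day 5 than at day 0 (log2 fold change 2.00 ± 0.34, adjusted p = 5.6e-05). At day 2 PCDHB7 was called lower under library totals and with no filter on low counts.

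PCDHB2 had 2.09 and 3.37 CPM on day 0, 2.29 and 1.898 on day 2, and 4.798 and 5.79 on day 5. It was higher at day 5 than at day 0 (log2 fold change 0.95 ± 0.25, adjusted p = 0.00252), as was the pseudogene PCDHB18P, at 0.0744 to 0.780 CPM (log2 fold change 2.89 ± 0.77, adjusted p = 0.00314). PCDHB8 had 1.54 and 0.859 CPM on day 0, 0.4997 and 0.9302 on day 2, and 0.2399 and 0.601 on day 5. It was the beta gene called lower at day 5 against day 0 (log2 fold change -1.47 ± 0.57, adjusted p = 0.031), a call lost without day 0 replicate 1 (adjusted p = 0.24), without day 5 replicate 1 (0.202) and with DESeq2 (0.0613). PCDHB16 had 3.75 and 3.88 CPM on day 0, 4.33 and 4.02 on day 2, and 2.999 and 2.84 on day 5. It was called only at day 5 against day 2, where it was lower (log2 fold change -0.52 ± 0.20, adjusted p = 0.0356). That call was lost with the replicate number as a block (adjusted p = 0.0521), with limma-voom (0.0527) and with DESeq2 (0.111). Leaving out any single library of day 2 or day 5 ended it too. PCDHB12 was called higher at day 5 against day 2 (log2 fold change 1.87 ± 0.69, adjusted p = 0.0254), lost without day 2 replicate 2 (adjusted p = 0.238), without day 5 replicate 2 (0.261) and with DESeq2 (0.067), and PCDHB6, at 0.372 to 0.819 CPM, was called in no comparison.

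**Figure D5:**
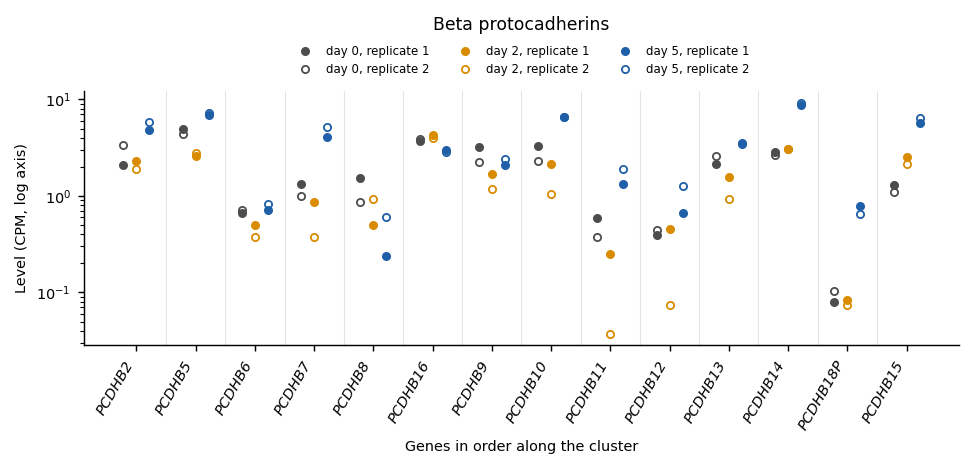
TMM-scaled CPM (y axis, log scale) of the 14 tested beta protocadherins in order along the cluster (x axis), with filled points for replicate 1 and open points for replicate 2 at day 0, 2 and 5. Levels lie between 0.0372 and 9.23 CPM, and for PCDHB14, PCDHB15 and PCDHB7 the day 5 points stand clear of the others.

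The alpha protocadherins were nearly silent. The 16 genes summed to 2.21 ± 0.7204 CPM at day 0, 1.59 ± 0.516 CPM at day 2 and 4.45 ± 0.578 CPM at day 5 (SD, n = 2 each), a ratio of 2.017 of day 5 to day 0. Of the 3 tested, PCDHA6 was higher at day 5 than at day 0 (log2 fold change 1.88 ± 0.74, adjusted p = 0.0317), a call lost under library totals (adjusted p = 0.053), with no filter on low counts (0.0681), without day 0 replicate 1 (0.128), without day 0 replicate 2 (0.166), without day 5 replicate 1 (0.292), without day 5 replicate 2 (0.0548) and with DESeq2 (0.129). PCDHA6 and PCDHA4 were higher at day 5 than at day 2 (log2 fold change 2.51 ± 0.80 for PCDHA6, adjusted p = 0.0112, and 1.49 ± 0.52 for PCDHA4, adjusted p = 0.0183). The call of PCDHA6 was lost without day 2 replicate 1 (adjusted p = 0.124) and without day 5 replicate 1 (0.152), and that of PCDHA4 without day 2 replicate 1 (adjusted p = 0.0756), without day 2 replicate 2 (0.0814), without day 5 replicate 1 (0.0982), without day 5 replicate 2 (0.0529) and with DESeq2 (0.0656). PCDHA3 was called in no comparison (0.91 ± 0.69 at day 5 against day 0).

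Over both steps, from day 0 to day 2 and from day 2 to day 5, the most frequent course among the 39 tested clustered genes was no call and then a rise, in 13 genes, among them PCDHGA5, PCDHGA9, PCDHGB2, PCDHGB6, PCDHB7 and PCDHB14. A fall and then a rise was seen in 9 (PCDHB5, PCDHB10, PCDHB11, PCDHB13, PCDHGB1, PCDHGA4, PCDHGA10, PCDHGA12 and PCDHGC5), and a rise at both steps in 5 (PCDHB15, PCDHGB3, PCDHGB7, PCDHGA11 and PCDHGC3). PCDHGB4 was the clustered gene that fell at both. Over all genes tested, 33.4% were called higher and 33.4% lower at the first step. At the second step 32.1% were higher and 33.7% lower. How many of all genes followed each course was not counted, so these counts describe the members only. Among the 14 tested members outside the clusters, CDH2, CDH24 and PCDH7 fell and then rose, CDH13, CDH15 and PCDH18 rose and then fell, and CDH11 and PCDH10 rose at both steps. Both steps use the day 2 libraries and are not independent, and day 2 calls lost under another setting, such as those of CDH11, PCDH10 and PCDHGC3, are counted here as called. PCDHB7, called lower at day 2 under library totals and with no filter on low counts, is counted as not called. Without day 2 replicate 2 the count of a fall and then a rise was 4 (PCDHB5, PCDHGA4, PCDHGA10 and PCDHGC5), and without day 2 replicate 1 it was 12.

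Compared per kilobase of gene length (means of 2 libraries), the highest levels at day 0 were those of PCDH18 (71.3 CPM per kb), CDH13 (32.6), PCDHGB5 (23.9), PCDHGC3 (21.7) and CDH6 (12.5). PCDH18 still stood first at day 5 (131 CPM per kb), then PCDHGC3 (78.8), CDH11 (33.6), CDH13 (32.6), PCDHGB5 (22.03), PCDHGB7 (16.96) and PCDH7 (14.6). CDH6 stood at 0.4395 CPM per kb at day 5.

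Genes that work with cadherins were read from lists chosen by function. Their counts stand beside 69.9% of all genes called at day 5 against day 0, 35.8% higher and 34.1% lower. Among catenins and other junction proteins, 3 of 13 tested genes were higher and 9 lower at day 5 than at day 0 (median log2 fold change -0.74). JUP (plakoglobin, the catenin shared by adherens junctions and desmosomes) was higher (1.57 ± 0.03), and VCL (vinculin, -1.02 ± 0.02), AJUBA (a LIM protein of junctions, -2.23 ± 0.06) and CTNND1 (p120-catenin, which keeps cadherins at the surface, -0.92 ± 0.03) were lower. The single tested desmosomal cadherin, DSG2, was higher at day 2 (0.88 ± 0.07) and lower at day 5 (-0.59 ± 0.08) against day 0. Of the nectins, which start junctions beside cadherins, NECTIN1 was higher (1.42 ± 0.13) and NECTIN2 (-0.28 ± 0.04) and NECTIN3 (-0.53 ± 0.06) were lower at day 5. Of the proteases that cut cadherins 1 of 11 was higher and 7 lower, among them MMP3 (-1.71 ± 0.04), ADAM15 (-2.62 ± 0.07), PSEN2 (-1.41 ± 0.10) and ADAM10 (-0.54 ± 0.04), the enzyme that sheds CDH2. All these values are log2 fold changes ± SE.

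Of the large and atypical cadherins 6 of 14 were higher and 5 lower at day 5 than at day 0. Over all genes 69.9% were called, 35.8% higher and 34.1% lower, and the list counts below stand beside the same shares. DCHS1 (Dachsous 1, the partner of FAT4 in planar polarity) had 5.48 and 5.33 CPM on day 0, 12.1 and 11.4 on day 2, and 281 and 301 on day 5. It was higher at day 5 than at day 0 (log2 fold change 5.75 ± 0.06, adjusted p = 5.4e-21). CELSR3 (-1.52 ± 0.07), CLSTN1 (-0.38 ± 0.03) and CLSTN3 (-0.54 ± 0.05) were lower on the log2 scale. Of the transcription factors of epithelial-mesenchymal transition, some of which repress CDH1, 8 of 9 were higher and 1 lower at day 5 against day 0. The log2 fold changes were 4.21 ± 0.08 for PRRX1, 2.23 ± 0.07 for TCF4, 1.03 ± 0.04 for SNAI2 and -1.13 ± 0.05 for ZEB1. Of the partners and effectors of protocadherins 3 of 12 were higher and 4 lower, with FYN at 1.72 ± 0.06, CYFIP1 at -0.84 ± 0.04, CYFIP2 at -0.88 ± 0.07 and ABI2 at 0.41 ± 0.06 on that scale.

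Of the factors known to control the clustered loci, 18 were tested. At day 2 against day 0, 10 were higher, 7 lower and STAG1 not called, where 66.8% of all genes were called. At day 5 against day 0, 10 were higher and 3 lower, where 69.9% were called. From day 2 to day 5, 6 were higher and 11 lower (median log2 fold change -0.42), where 65.8% were called. CTCF, which loops the cluster promoters to their enhancers, had 27.1 and 23.5 CPM on day 0, 13.7 and 17.00 on day 2, and 30.9 and 32.8 on day 5. It was lower at day 2 (log2 fold change -0.72 ± 0.10, adjusted p = 9.4e-06) and slightly higher at day 5 (log2 fold change 0.33 ± 0.10, adjusted p = 0.00631) than at day 0. The cohesin regulator PDS5B, the cohesin subunits STAG2 and RAD21 and the silencing factor SMCHD1 were higher at day 5 than at day 0, with log2 fold changes of 1.26 ± 0.07 for PDS5B, 1.10 ± 0.07 for STAG2, 0.29 ± 0.05 for RAD21 and 0.67 ± 0.06 for SMCHD1. Against day 2 each of them was lower at day 5, while CTCF was higher (log2 fold change 1.05 ± 0.10). The lower values were -0.75 ± 0.06 for PDS5B, -0.65 ± 0.06 for STAG2, -0.54 ± 0.04 for RAD21 and -0.68 ± 0.05 for SMCHD1. Whether these factors bear on the clustered genes was not tested.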

How the data were processed

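The deposited table gives expected counts per gene, which the authors estimated from the reads and which need not be whole and are not scaled between libraries; 87.2% of values were whole and the rest were rounded before testing. Libraries were prepared from TRIzol-extracted total RNA with a TruSeq kit, per the labels' protocols. Reads were placed on GRCh38, per the submitters' processing notes; aligner, counter and strand setting are not given in the sources used here, so reads of a gene and its antisense partner cannot be separated. Of 60843 rows, 172 had no name (0.0356 to 0.0475% of a library's counts) and were left out. Groups came from the labelled time point. All 6 libraries entered 1 fit by day in edgeR 4.0.16, run in R 4.3.3, with filterByExpr (minimum count 10, minimum total 15; 16327 genes kept), TMM factors and the quasi-likelihood test with 3 residual degrees of freedom, two-sided, with Benjamini-Hochberg adjustment over all genes and calls under 0.05. The standard error is the log2 fold change divided by the square root of F. CPM per kilobase uses the deposited gene length. Coordinates are from GENCODE 29 (96 of 96 members matched) and promoters from RefSeq. The fit was tested on simulated data. Other settings were DESeq2 1.42.0, limma-voom (limma 3.58.1), RLE factors, library totals, no filter, a filter at 1 CPM in 2 or more libraries, only the 4 libraries compared, a replicate block, a 2-fold threshold and leaving out each library.

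Members and lists were chosen with earlier results of these data known. Values in every library are given for members with a mean of at least 5 CPM at some day and for the 5 largest changes in each direction of a comparison. Of each companion list, up to 4 called genes of lowest adjusted p at day 5 against day 0 are named; CTCF and the marker genes given with values were chosen after their values were seen. The level of PCDH11Y is not given.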

Additional observations from a re-analysis of the deposited data

How the results depend on the processing

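For the counts of called members, 15 other settings were tried. Calls of single members that were lost under a setting other than the 2-fold test are given with those members. Apart from the 2-fold test, 16 of 27 calls at day 2 against day 0, 32 of 39 at day 5 against day 0 and 33 of 42 at day 5 against day 2 were kept in every other setting that could be fitted. When only changes above 2-fold were tested (glmTreat), 5 members were called at day 2 against day 0 (3 higher, 2 lower), 19 at day 5 against day 0 (17 higher, 2 lower) and 21 at day 5 against day 2 (20 higher, 1 lower). These counts are out of 53 tested members. Of 16327 genes, the 2-fold test called 1141 up and 904 down in the first of these comparisons. For the second it called 1591 up and 1687 down, and for the third 1046 up and 1299 down. With library totals in place of TMM factors, 22 members were lower at day 2 against day 0, as were 6902 of all genes. Under that scaling CDH11 and PCDHGC3 turned at day 2 against day 0, to log2 fold changes of -0.02 (adjusted p = 0.714) and -0.00 (adjusted p = 0.965), while the median of all genes moved to -0.18. PCDHGA9 ranged at day 2 against day 0 from -1.47 without day 2 replicate 1 to 1.07 without day 2 replicate 2. Leaving out each library in turn gave 20 to 31 calls at day 2 against day 0 (11 to 13 higher, 9 to 18 lower), 36 to 40 at day 5 against day 0 (27 to 32 higher, 7 to 9 lower) and 36 to 43 at day 5 against day 2 (29 to 34 higher, 7 to 9 lower); a day left with 1 library is assumed to vary like the others. Same-numbered libraries did not deviate together (correlations 0.003, -0.002 and -0.005 over 16327 genes), so the numbers do not pair the libraries; with the replicate number as a block 26, 38 and 41 members were called at day 2 against day 0, day 5 against day 0 and day 5 against day 2, and the block left PCDH10 (0.0615) and PCDHB11 (0.0626) at day 2 against day 0, PCDHGA8 (0.0591) at day 5 against day 0 and PCDHB16 (0.0521) at day 5 against day 2 not called (adjusted p). With the block, the all-gene calls in the same order were 5408 up with 5398 down, 5737 up with 5560 down, and 5156 up with 5486 down. Of the members not called in the main fit, 14 of 26, 6 of 14 and 1 of 11 in these 3 comparisons were called in at least 1 other setting. Depth limits the alpha genes and the low beta genes most, at 0.103 to 0.180 CPM for 3 counts.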

Other observations

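Among the 43 members below the count filter, 5 (PCDH15, PCDH8, PCDH8P1, CDH19 and PCDHA5) had 0 counts in all 6 libraries, and 15 reached at least 5 counts in a library, the highest value being 16.2. The cadherins among the 15 were CDH3, CDH26 and CDH17, a cadherin of intestine and liver. CDH17 had 5 and 6 counts at day 5, against 0 in both day 0 libraries, at least 5.71-fold higher against a floor of 3 counts over the group. CDH26 counts were 0 and 1 on day 0, then 7 and 5 on day 2 and 5 and 4 on day 5. PCDH1, a delta-1 protocadherin of airway epithelium, held 5 and 4 counts on day 0, 7 and 5 on day 2 and 0 in both libraries of day 5, and PCDH19, a delta-2 protocadherin linked to an epilepsy, had 1 and 5 at day 5 against 0 and 2 at day 0.

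Most of the others were clustered genes: PCDHA1, PCDHA2, PCDHA7, PCDHA8, PCDHA10, PCDHAC1, PCDHAC2, PCDHB3, PCDHB4 and PCDHB17P. PCDHA10 held 11.9 and 5.15 counts on day 0, then 9.69 and 7.5 on day 2 and 1 and 1.43 on day 5. The ratio of day 5 to day 0 was 0.183 after scaling, with an exact 95% counting interval of 0.0205 to 0.771 that does not include the division of reads between alpha genes. PCDHAC2, the C-type isoform known from serotonergic neurons in the mouse, had 10.4 and 5.46 counts at day 5, against 2.24 and 0 at day 0, a ratio of 11.7 (2.71 to 105).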
